A study of Mus musculus with 6 samples.

Results

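Imprinted genes are expressed mainly or only from the copy inherited from one parent, a state set by DNA methylation laid down in egg or sperm. They lie in clusters, each governed by a control region, in which protein-coding genes often sit beside long noncoding RNAs. Many of them act on fetal growth: as a rule of thumb, genes expressed from the father's copy promote it and genes expressed from the mother's copy restrain it, and many are turned down after birth. Several, Igf2 and H19 among them, are known to be highly expressed in fetal and neonatal kidney.

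The 37 imprinted genes described here were chosen by gene symbol from a list, and all 37 had a row among the 48587 gene rows of the deposited count table. From general knowledge, 16 are expressed from the maternal copy, 20 from the paternal copy, and Gnas makes different products from either copy. The counts do not separate the 2 parental alleles, so nothing here measures imprinting itself, and the assignment holds for the tissues in which each gene is known to be imprinted. Ascl2 and several neighbours of Kcnq1ot1, for example, are known as imprinted mainly in placenta.

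RNA bound to tagged ribosomes was sequenced from kidneys of neonatal mice in 6 libraries. The 3 Foxp1-deficient libraries came from Cdh16Cre;Foxp1fl/fl;RiboTag animals, in which both copies of Foxp1, a forkhead transcription factor gene, are floxed. The 3 littermate control libraries came from Cdh16Cre;Foxp1fl/+;RiboTag animals, which also carry Cre and 1 floxed copy. In both groups Cre is driven by Cdh16, which encodes a cadherin of the tubule epithelium. RiboTag gives ribosomes of Cre-active cells an HA epitope, by which anti-HA beads pulled them down. By the treatment label the Foxp1-deficient animals had a chronic acid load and the controls vehicle, although the protocols describe no acid load, so genotype and treatment cannot be told apart. No label says that libraries come from separate animals, and p-values therefore rest on library-to-library spread, of which part or all may be technical. Within each group the libraries are numbered 1, 2 and 3, and values below are listed in that order. Levels are counts divided by library total (CPM), with TMM scaling to even out differences in library composition.

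Library totals ran from 9710048 to 18958196 counts, and a count of 0 allows at most 3 counts, or 0.137 to 0.382 CPM, for counting error alone. The 2 libraries numbered 2 stood apart, with 8.72% and 6.65% of counts in 4 rows known to collect ribosomal RNA fragments (Rn18s-rs5, Gm23935, Gm26917 and Lars2), against 1.49% to 2.85% elsewhere, and fewer detected genes (14285 and 13885, against 18241 to 22190). Foxp1 had 34.5, 11.3 and 29.1 CPM in the Foxp1-deficient libraries and 48.7, 30.7 and 35.7 CPM in the controls, with log2 differences of -0.49, -1.43 and -0.29 in pairs 1, 2 and 3. The labels thus held in direction only. The groups overlapped, and 16.0% of all genes tested were also lower in 3 of 3 pairs. Exons left in the floxed allele are also counted. The labelled cell type, tubular cells, was poorly represented. The sums over 11 tubule genes were 58.6, 128 and 554 CPM in the Foxp1-deficient libraries and 34.2, 64.2 and 451 CPM in the controls. In the libraries numbered 1 and 2 a large part of the sum was Lrp2 alone. It had 52.4 and 120 CPM in Foxp1-deficient libraries 1 and 2 and 33.0 and 32.4 CPM in controls 1 and 2. Umod of the thick limb was at 0 in 3 of 6 libraries. Stromal genes were abundant in all 6, with Col1a1 at 7034, 2153 and 8117 CPM in the Foxp1-deficient libraries and 7253, 3781 and 8898 CPM in the controls. The 6 adrenal cortex genes, which mark a neighbouring organ rich in imprinted transcripts, summed to 1.30, 2.16 and 2.19 CPM in the Foxp1-deficient libraries and 4.18, 6.18 and 3.68 CPM in the controls, with 4 of the 6 at 0 throughout. In pulldowns of whole kidneys, fewer cells of a type and less RNA per cell cannot be told apart. No library of total RNA stands beside these 6, so ribosome-bound RNA and RNA carried over into the pulldown cannot be told apart either. That limit bears most on the levels and ratios of noncoding RNAs such as H19, Meg3, Rian, Mirg, Airn and Kcnq1ot1.

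Sequences are shown for Mest, Ndn and Meg3, which had the lower p values once replicate numbers were taken into account, and for Peg3, whose start region is shared with Usp29. Each is the window from 250 bases before to 50 bases after an annotated start (RefSeq, GRCm38.p6), read 5′ to 3′ along the gene's strand. Capitals mark CG, the pair that carries DNA methylation. Where a gene has several windows, that with the most CG is shown.
Mest, chr6:30737800-30738099, plus strand: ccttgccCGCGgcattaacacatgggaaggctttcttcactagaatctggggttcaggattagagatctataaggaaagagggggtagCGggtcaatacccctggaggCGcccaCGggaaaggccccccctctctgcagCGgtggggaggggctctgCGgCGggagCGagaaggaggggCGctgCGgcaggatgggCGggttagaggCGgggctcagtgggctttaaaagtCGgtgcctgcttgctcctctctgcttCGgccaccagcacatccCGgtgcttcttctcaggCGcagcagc
Ndn, chr7:62348027-62348326, plus strand: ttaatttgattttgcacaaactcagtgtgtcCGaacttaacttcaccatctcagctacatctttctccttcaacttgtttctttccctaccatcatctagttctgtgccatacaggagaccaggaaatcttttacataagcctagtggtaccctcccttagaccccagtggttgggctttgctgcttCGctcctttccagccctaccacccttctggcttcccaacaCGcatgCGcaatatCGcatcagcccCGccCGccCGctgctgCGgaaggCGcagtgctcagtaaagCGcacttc
Meg3, chr12:109540746-109541045, plus strand: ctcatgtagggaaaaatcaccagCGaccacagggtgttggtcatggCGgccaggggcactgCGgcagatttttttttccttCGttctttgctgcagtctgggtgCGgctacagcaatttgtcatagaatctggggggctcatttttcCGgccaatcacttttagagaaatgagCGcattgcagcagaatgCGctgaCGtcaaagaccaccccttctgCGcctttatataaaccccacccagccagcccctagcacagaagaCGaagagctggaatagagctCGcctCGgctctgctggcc
Peg3, chr7:6730370-6730669, minus strand: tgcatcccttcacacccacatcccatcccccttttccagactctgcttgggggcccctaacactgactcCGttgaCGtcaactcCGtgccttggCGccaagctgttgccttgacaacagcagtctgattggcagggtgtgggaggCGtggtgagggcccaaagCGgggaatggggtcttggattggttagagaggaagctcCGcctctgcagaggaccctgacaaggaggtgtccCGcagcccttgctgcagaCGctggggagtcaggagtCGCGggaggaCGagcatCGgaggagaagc
These windows held 17, 11, 13 and 13 CG. The Peg3 window also covers the start of Usp29, which is transcribed the other way from a point 147 bases from the Peg3 start in the deposited annotation.

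Windows were found for 31 of the 37 members and not for H19, Cdkn1c, Peg10, Sgce, Impact and Peg13. Taking the window richest in CG for each gene, the members had a median of 17 CG, from 0 in Rian to 48 in Ppp1r9a, beside a median of 8 over 27025 genes. The motif TGCCGC, the known core bound by the imprint-maintaining zinc finger protein Zfp57 when methylated, was searched on both strands. It lay in 8 of 31 member windows, Mest (2 copies) and Meg3 among them, and in 12.2% of the windows of all genes. The motif itself holds a CG and member windows were richer in CG, so these shares are not compared at like CG content. The forkhead motif TGTTTAC, likewise on both strands, lay in 1 of the 31, that of Dlk1, and in 3.49% of the windows of all genes.

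Several members are also hosts of microRNAs: of the hairpins with a sequence in the RefSeq table, 22 lay on the same strand inside 7 of the 37 genes, 14 of them in Mirg. The deposited annotation also has Mir1906-1 inside Meg3, which that count leaves out. The pairs from H19 and Mest are shown because H19 was the most abundant member and Mest the one of lowest p once replicate numbers were taken into account. Capitals mark the seed, bases 2 to 8.
mmu-miR-675-5p, from H19: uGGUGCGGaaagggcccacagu
mmu-miR-675-3p, from H19: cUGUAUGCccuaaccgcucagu
mmu-miR-335-5p, from Mest: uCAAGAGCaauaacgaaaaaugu
mmu-miR-335-3p, from Mest: uUUUUCAUuauugcuccugacc
No 2 of these 4 share a seed. The counts are of exon fragments of the host genes and say nothing of the mature microRNAs.

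The members spanned the whole range of expression. Per kilobase of exon, which allows genes to be compared, H19 averaged 3089.5 CPM per kilobase over the 6 libraries and ranked 10 among the 14311 genes tested. Igf2 followed with 655, Cdkn1c with 231, Nnat with 160.1 and Grb10 with 125 CPM per kilobase. At the other end were Magel2 with 0.123 and Rasgrf1 with 0.0218 CPM per kilobase. As a share of counts, all 37 together took 2.04, 1.25 and 2.00% in the Foxp1-deficient libraries and 2.39, 1.44 and 1.76% in the controls. H19 and Igf2 made up more than the other 35 together in each library, with 1.24, 0.713 and 1.21% in the Foxp1-deficient libraries and 1.57, 0.977 and 1.03% in the controls. The maternally expressed genes without H19 took 0.223% to 0.388% of counts, and the paternally expressed genes without Igf2 took 0.243% to 0.453%.

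**Figure D1:**
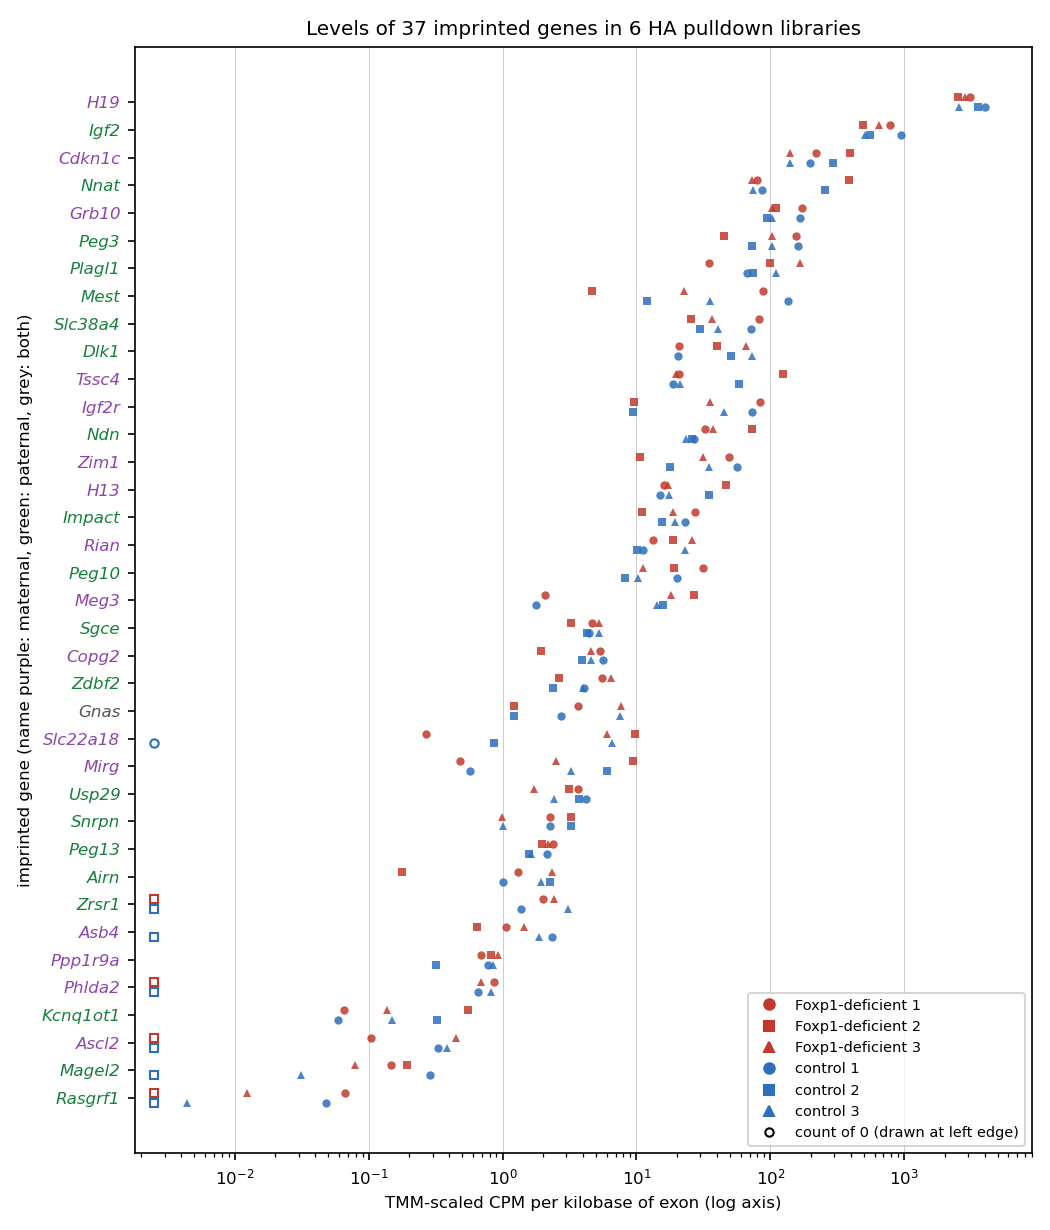
CPM per kilobase of exon (log axis) of the 37 imprinted genes in each of the 6 libraries, ordered by mean level, with Foxp1-deficient libraries in red above controls in blue and the marker shape giving the replicate number. H19 lies at the top in every library, and for genes such as Mest, Meg3 and Igf2r the libraries group by number rather than by genotype.

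Between genotypes, no imprinted gene passed the test. Mest had the lowest p within equally numbered pairs and was lower in Foxp1-deficient libraries, with log2 differences of -0.62, -1.35 and -0.65 in pairs 1, 2 and 3. Ndn, Peg10 and Meg3 were higher in 3 of 3 pairs, as were 16.5% of all genes tested. Zim1 and Usp29 of the Peg3 domain were lower in 3 of 3 pairs, as were 16.0% of all genes tested, and Peg3 itself was close to level in pairs 1 and 3. H19 and Igf2 were lower in pairs 1 and 2 and higher in pair 3.

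Of the 37 genes, 35 had enough counts to be tested, and 0 were higher and 0 lower at an adjusted p under 0.05 (edgeR's quasi-likelihood test, adjusted by Benjamini-Hochberg over 14311 genes), where 0% of all genes passed. At an unadjusted p under 0.05 there were 0 members, against 0.720% of all genes. DESeq2 also called 0 members, while it called 6 genes in all. It had 0 members at an unadjusted p under 0.05, beside 186 of 14311 genes. With quality weights limma-voom called 0 members and 0 genes. There 2 members, Ndn and Zdbf2, had an unadjusted p under 0.05, beside 330 of 14311 genes. The deviations of equally numbered libraries from their group means correlated, so a second fit took the number as a replicate block. It called 0 members in edgeR, with a lowest adjusted p of 0.760, and 4 had an unadjusted p under 0.05, against 5.32% of all genes. The 4 were Mest, Ndn, Peg10 and Meg3. DESeq2 with the block called 1 member, Mest, among 169 genes, and limma-voom with the block called 0 members among 8 genes.

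Of the 35 tested members, 21 were higher and 14 lower on the Foxp1-deficient side, and their median log2 fold change was 0.09, beside 7675 higher and 6636 lower with a median of 0.03 over all genes tested. Among genes expressed from the maternal copy 11 were higher and 4 lower, with a median of 0.24. Among those expressed from the paternal copy 9 were higher and 10 lower, with a median of -0.01. The medians of maternal members in pairs 1, 2 and 3 were 0.11, 0.43 and -0.04, so the larger value came from pair 2. The medians of paternal members were 0.08 in pair 1, -0.01 in pair 2 and -0.00 in pair 3. Without control 2 the medians were -0.04 for maternal and -0.16 for paternal members. Without both libraries numbered 2 the maternal median was -0.0030.

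**Figure D2:**
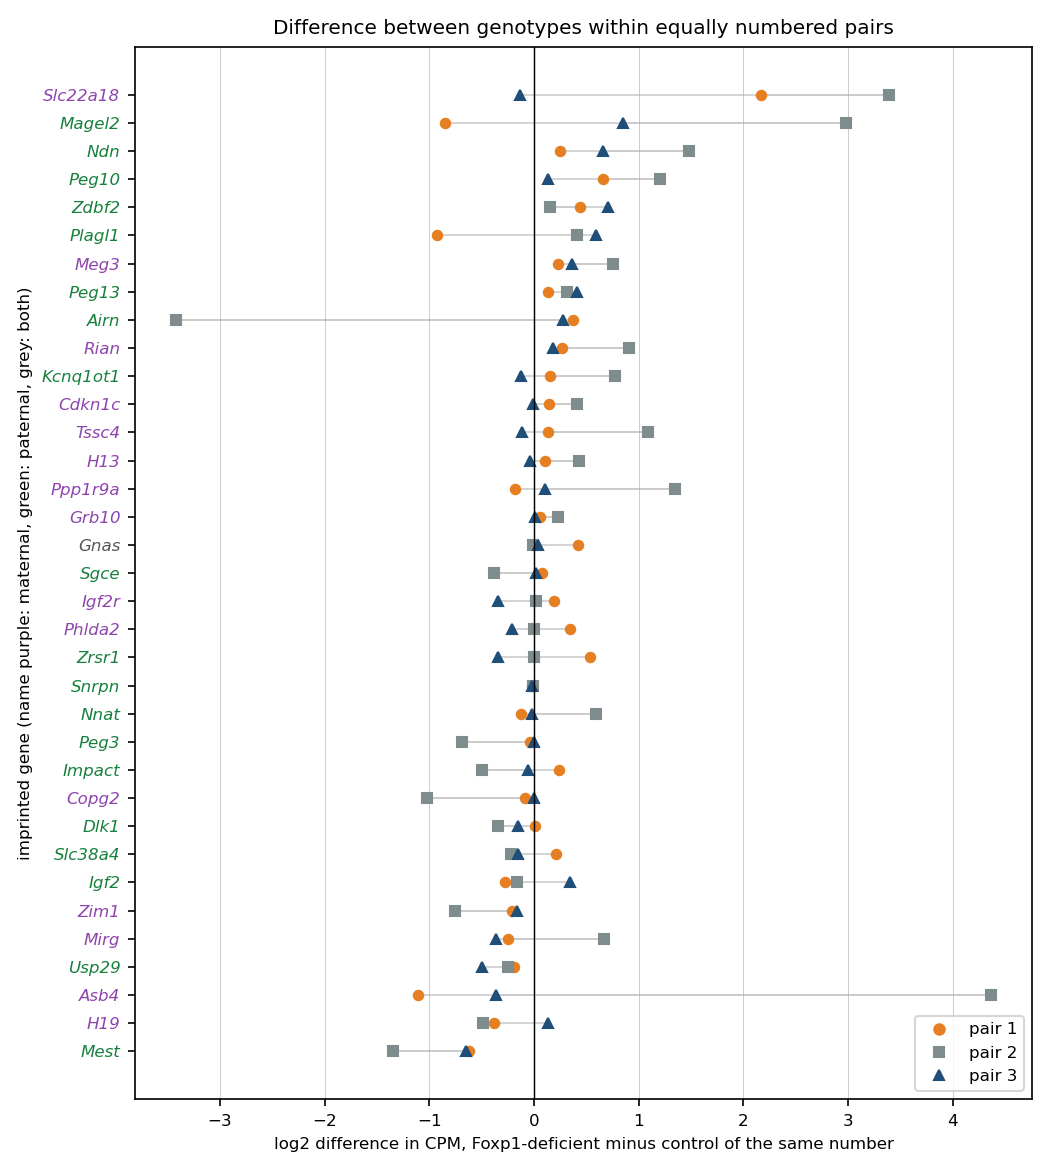
Log2 difference in CPM between the Foxp1-deficient and the control library of the same number, for the 35 tested imprinted genes, ordered by their median over pairs 1, 2 and 3 (values above 0 are higher in the Foxp1-deficient library). Mest lies at the bottom with all 3 pairs below 0, Ndn and Peg10 lie near the top with all 3 above 0, and pair 2 gives the values farthest from 0 for many genes, Asb4, Airn and Slc22a18 among them.

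By pairs, 7 of the 35 tested members were higher in 3 of 3, against 16.5% of all genes tested, and 5 were lower in 3 of 3, against 16.0%. Neither count stands far from the share over all genes. The 7 were Meg3, Rian, Grb10, Peg10, Ndn, Zdbf2 and Peg13, and the 5 were Peg3, Usp29, Zim1, Mest and Snrpn. For Snrpn the 3 differences were close to 0, at log2 -0.01, -0.01 and -0.02. With 3 pairs an exact paired test allows no p below 0.25. Only Ndn had CPM that did not overlap between groups, 1 of 35 higher, beside 2.65% of all genes, and 0 members were lower without overlap, beside 2.10%.

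Mest (mm10 chr6:30723547-30748465), expressed from the paternal copy, encodes a protein of the hydrolase fold and is best known from fetal mesoderm. It had 347, 18.4 and 88.6 CPM in the Foxp1-deficient libraries and 535, 47.2 and 139 CPM in the controls. The Foxp1-deficient library was the lower of each pair, while the groups overlapped widely, and libraries numbered 1 were high and those numbered 2 low in both. Its log2 fold change was -0.67 (SE 1.14) without the block (unadjusted p = 0.577, adjusted p = 0.9998, edgeR) and -0.86 (SE 0.19) with it (unadjusted p = 0.00650, adjusted p = 0.760, edgeR). DESeq2 with the block gave -0.85 and an adjusted p of 0.00845, and without control 1 the unblocked value was 0.72. Copg2, its neighbour, encodes a subunit of the COPI vesicle coat, is transcribed towards it and shares 912 exon bases with it. Fragments on those bases cannot be told apart and by default are counted for neither gene. Copg2 had 27.3, 9.92 and 23.3 CPM in the Foxp1-deficient libraries and 29.0, 20.2 and 23.3 CPM in the controls, differing little within pairs 1 and 3. The Copg2 to Mest ratio, per kilobase, was 0.0605, 0.414 and 0.203 in the Foxp1-deficient libraries and 0.0417, 0.330 and 0.129 in the controls, higher in the Foxp1-deficient library of each pair. The 4 smooth muscle genes summed to 9588, 8771 and 4936 CPM in the Foxp1-deficient libraries and 11933, 20606 and 9111 CPM in the controls, with the lower sum on the Foxp1-deficient side of each pair. The 4 macrophage genes, with sums of 42.5, 119.8 and 332 CPM in the Foxp1-deficient libraries and 215, 225 and 752 CPM in the controls, were likewise lower in sum in each pair. Of these genes Cd68 went the other way in pair 2, with 33.3 CPM in Foxp1-deficient library 2 and 22.8 CPM in control 2. The adrenal cortex sums given above were lower in each pair too. So were those of the 4 nephron progenitor genes, carried mostly by Crym. They summed to 9.15, 14.0 and 7.85 CPM in the Foxp1-deficient libraries and 13.9, 26.2 and 11.3 CPM in the controls. By number, control 2 had the highest smooth muscle sum of the controls and their lowest Mest. The part of any of these genes in the Mest difference was not tested.

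Ndn (chr7:62346569-62350262) encodes necdin, a MAGE family protein of the paternally expressed region that is lost in Prader-Willi syndrome in humans. It had 119, 268 and 138 CPM in the Foxp1-deficient libraries and 100.1, 96.2 and 87.2 CPM in the controls, so the lowest Foxp1-deficient value lay above the highest control value. The mean was 175 ± 81.1 CPM in Foxp1-deficient libraries and 94.5 ± 6.61 CPM in controls (SD, n = 3 each). The log2 fold change of 0.89 (SE 0.42) did not pass the test (unadjusted p = 0.0671, adjusted p = 0.9998, edgeR). The block gave 0.80 (SE 0.26) (unadjusted p = 0.0279, adjusted p = 0.853, edgeR). The difference was largest in pair 2, by log2 0.25, 1.48 and 0.66 in pairs 1, 2 and 3. The 5 mesothelium genes summed to 2353, 6185 and 2665 CPM in the Foxp1-deficient libraries and 1715, 2316 and 1529 CPM in the controls, and did not overlap between groups either. The sum was carried by Upk3b, Msln and Krt19, which were higher in 3 of 3 pairs. The other members went the other way in places, Wt1 in pairs 1 and 3 and Lrrn4 in pair 2. Their part in the Ndn difference was not tested. The genes near Ndn were low. Snrpn, which encodes a splicing protein, ranged from 2.14 to 7.02 CPM over the 6 libraries, and shares 34.1% of its exon bases with other rows, Snurf and Gm38393 among them. Magel2, another MAGE family gene, ranged from 0 to 1.33 CPM, near the detection limit.

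Peg10 and Sgce are neighbours expressed from the paternal copy. Peg10 (chr6:4747306-4760517), derived from a retrotransposon and needed for placenta formation, had 211, 126 and 74.4 CPM in the Foxp1-deficient libraries and 133, 54.9 and 68.0 CPM in the controls. Its log2 fold change was 0.68 (SE 0.53) (unadjusted p = 0.233, adjusted p = 0.9998, edgeR), and 0.66 (SE 0.23) with the block (unadjusted p = 0.0353, adjusted p = 0.853, edgeR). The Foxp1-deficient library was higher in each pair, least in pair 3. Sgce, which encodes the membrane protein epsilon-sarcoglycan, had 49.4, 34.5 and 56.0 CPM in the Foxp1-deficient libraries and 46.8, 45.1 and 55.4 CPM in the controls, with a highest to lowest ratio of 1.63, and the groups overlapped. The maternally expressed genes of the same region were low. Ppp1r9a, encoding the actin-binding protein neurabin, had 9.99, 12.0 and 13.4 CPM in the Foxp1-deficient libraries and 11.3, 4.61 and 12.4 CPM in the controls. Asb4, an ankyrin repeat gene, ranged from 0 to 9.15 CPM, with no count in control 2.

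The Dlk1-Meg3 domain combines a paternally expressed protein gene with 3 long noncoding RNAs expressed from the maternal copy. Dlk1 (chr12:109452823-109463336), a membrane ligand of the Notch ligand family that restrains differentiation, had 117, 225 and 371 CPM in the Foxp1-deficient libraries and 116, 285 and 412 CPM in the controls. Meg3 (chr12:109541001-109571726) had 37.8, 483 and 329 CPM in the Foxp1-deficient libraries and 32.2, 287 and 256 CPM in the controls. Rian, which hosts many small nucleolar RNAs, had 234, 329 and 454 CPM in the Foxp1-deficient libraries and 194, 176 and 402 CPM in the controls, and Mirg, a host of microRNAs, had 3.50, 69.3 and 18.4 CPM in the Foxp1-deficient libraries and 4.18, 43.6 and 23.7 CPM in the controls. All 4 were lowest or nearly so in the libraries numbered 1, and only Meg3 and Rian were higher in the Foxp1-deficient library of every pair, by log2 0.23, 0.75 and 0.36 and by 0.27, 0.90 and 0.18. The log2 fold change of Meg3 was 0.56 (SE 1.01) (unadjusted p = 0.592, adjusted p = 0.9998, edgeR) and 0.45 (SE 0.15) with the block (unadjusted p = 0.0327, adjusted p = 0.853, edgeR). Without Foxp1-deficient library 2 the unblocked value was -0.056. The Meg3 to Dlk1 ratio per kilobase was 0.101, 0.670 and 0.277 in the Foxp1-deficient libraries and 0.0872, 0.315 and 0.194 in the controls, higher in the Foxp1-deficient library of each pair and most so in pair 2.

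H19 and Igf2 share enhancers on distal chromosome 7, and a methylated insulator between them lets the maternal copy express H19 and the paternal copy Igf2. H19 (chr7:142575529-142578143) is a long noncoding RNA and Igf2 (chr7:142650766-142666816) encodes a fetal insulin-like growth factor. H19 had 7291, 5965 and 6722 CPM in the Foxp1-deficient libraries and 9491, 8367 and 6134 CPM in the controls. Igf2 had 4459, 2839 and 3716 CPM in the Foxp1-deficient libraries and 5397, 3168 and 2931 CPM in the controls. Both varied by 1.59-fold for H19 and 1.90-fold for Igf2 between the highest and lowest library, and the groups overlapped. H19 had a log2 fold change of -0.26 (SE 0.47) (unadjusted p = 0.588, adjusted p = 0.9998, edgeR). The H19 to Igf2 ratio per kilobase was 3.95, 5.07 and 4.36 in the Foxp1-deficient libraries and 4.24, 6.37 and 5.05 in the controls. In each pair the Foxp1-deficient library had the lower ratio, while the groups overlapped. Igf2r, expressed from the maternal copy, encodes the receptor that takes Igf2 up for degradation, and had 784, 89.9 and 334 CPM in the Foxp1-deficient libraries and 686, 88.9 and 423 CPM in the controls. The libraries numbered 2 were lowest in both groups. Airn, the paternal noncoding RNA transcribed across Igf2r in the other direction, had 4.69, 0.636 and 8.44 CPM in the Foxp1-deficient libraries and 3.58, 8.07 and 6.93 CPM in the controls. Foxp1-deficient library 2 was lowest and the groups overlapped.

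The Kcnq1ot1 domain lies next to it on chromosome 7. There the long noncoding RNA Kcnq1ot1, made from the paternal copy, silences the paternal copies of nearby genes, which are then expressed from the maternal copy. Cdkn1c (chr7:143458339-143461050) encodes the cell cycle inhibitor p57 and had 447, 799 and 286 CPM in the Foxp1-deficient libraries and 406, 601 and 287 CPM in the controls. Kcnq1ot1 (chr7:143212155-143296549) had 5.53, 46.7 and 11.5 CPM in the Foxp1-deficient libraries and 4.97, 27.1 and 12.5 CPM in the controls. Both were highest in the libraries numbered 2, where the Foxp1-deficient library was the higher. Cdkn1c differed by log2 0.14, 0.41 and -0.01 and Kcnq1ot1 by 0.15, 0.78 and -0.12 in pairs 1, 2 and 3. Tssc4 had 38.3, 231 and 36.3 CPM in the Foxp1-deficient libraries and 34.9, 108 and 39.3 CPM in the controls, again highest in number 2, and shares 220 exon bases with Trpm5 on the other strand. Slc22a18, a transporter gene, had 0.452, 16.7 and 10.2 CPM in the Foxp1-deficient libraries and 0, 1.47 and 11.2 CPM in the controls, low in both libraries numbered 1 and, of those numbered 2, high only in the Foxp1-deficient one. Phlda2, which restrains placental growth, ranged from 0 to 0.960 CPM, with 0 counts in both libraries numbered 2. Ascl2, a placental transcription factor gene, ranged from 0 to 0.730 CPM and was too low to test.

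Peg3 (chr7:6703892-6730431), a zinc finger gene of the paternal copy, and Usp29, encoding a deubiquitinase, are transcribed from the shared region shown above, and Zim1 is a maternally expressed zinc finger gene beside them. Peg3 had 2068, 599.7 and 1376 CPM in the Foxp1-deficient libraries and 2128, 968 and 1379 CPM in the controls. Zim1 had 383, 82.9 and 245 CPM in the Foxp1-deficient libraries and 443, 139.6 and 274 CPM in the controls. Usp29 had 66.6, 56.6 and 31.2 CPM in the Foxp1-deficient libraries and 75.9, 67.4 and 44.2 CPM in the controls. In pairs 1 and 3 Peg3 differed by log2 -0.04 and -0.00, so its lower level in 3 of 3 pairs rested on pair 2, at -0.69. Zim1 differed by log2 -0.21, -0.75 and -0.16 and Usp29 by -0.19, -0.25 and -0.50 in pairs 1, 2 and 3. The log2 fold change of Usp29 was -0.28 (SE 0.42) (unadjusted p = 0.521, adjusted p = 0.9998, edgeR). The Zim1 to Peg3 ratio per kilobase stayed between 0.236 and 0.355 although each gene varied 5.34-fold and 3.55-fold over the libraries. In each pair the Foxp1-deficient library had the lower ratio, at 0.315, 0.236 and 0.303 in the Foxp1-deficient libraries and 0.355, 0.246 and 0.339 in the controls. The Usp29 to Peg3 ratio was 0.0237, 0.0695 and 0.0167 in the Foxp1-deficient libraries and 0.0263, 0.0513 and 0.0236 in the controls, highest in the libraries numbered 2.

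**Figure D3:**
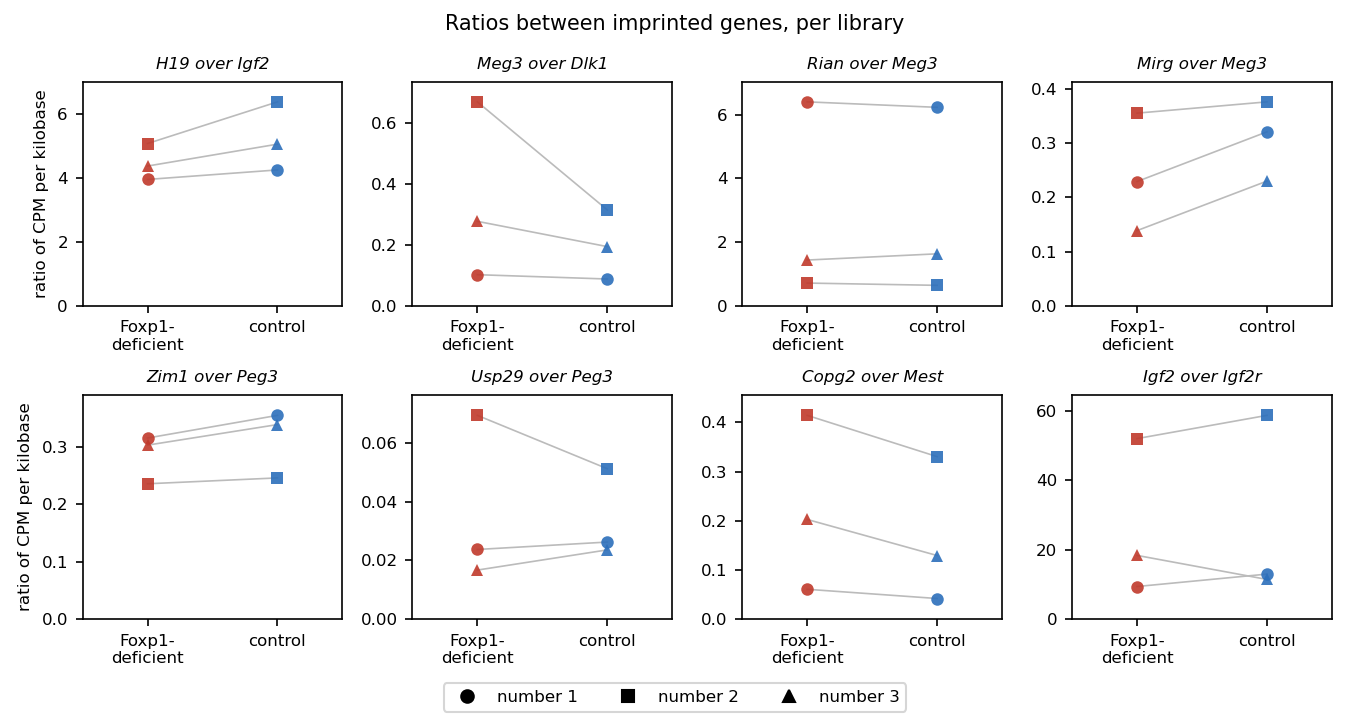
Ratios of CPM per kilobase between imprinted genes in each library, Foxp1-deficient at left in red and control at right in blue, with grey lines joining libraries of the same number. Ratios such as Igf2 over Igf2r and Rian over Meg3 separate by number far more than by genotype, and H19 over Igf2 slopes the same way in all 3 pairs with overlapping groups.

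Outside these clusters, members with roles in signalling and transport are given first. Grb10, an adaptor that damps insulin and IGF receptor signalling and is expressed from the maternal copy in most tissues, had 1569, 996 and 940.2 CPM in the Foxp1-deficient libraries and 1503, 852 and 933 CPM in the controls. Plagl1, a zinc finger factor known to act on other imprinted genes, had 273, 773 and 1312 CPM in the Foxp1-deficient libraries and 520.0, 579 and 868 CPM in the controls. The pairs of Plagl1 went both ways, lower in pair 1 and higher in pairs 2 and 3. Gnas, which encodes the stimulatory G protein alpha subunit and other products, had 41.2, 13.6 and 86.4 CPM in the Foxp1-deficient libraries and 30.7, 13.7 and 84.0 CPM in the controls. Its libraries fell by number and differed little within pairs 2 and 3, and 22.0% of its exon bases are shared with Nespas and Gm20721 on the other strand. Nnat, encoding the membrane proteolipid neuronatin, had 146, 709.9 and 134 CPM in the Foxp1-deficient libraries and 159, 472 and 136 CPM in the controls, with both libraries numbered 2 highest. Slc38a4, an amino acid transporter gene of fetal tissues, had 327, 101 and 144 CPM in the Foxp1-deficient libraries and 282, 117 and 161 CPM in the controls, and was lowest in number 2.

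H13, encoding a signal peptide peptidase, had 144, 415 and 152 CPM in the Foxp1-deficient libraries and 133, 308 and 156 CPM in the controls, about level within pairs 1 and 3. Impact, a regulator of the kinase Gcn2 in amino acid shortage, had 94.1, 37.5 and 64.4 CPM in the Foxp1-deficient libraries and 79.7, 53.0 and 67.2 CPM in the controls, with mixed direction over pairs. Zdbf2, a zinc finger gene of the paternal copy, had 70.0, 33.6 and 82.2 CPM in the Foxp1-deficient libraries and 51.7, 30.2 and 50.2 CPM in the controls. The Foxp1-deficient library was the higher in each pair and the groups overlapped, with a log2 fold change of 0.49 (SE 0.45) (unadjusted p = 0.305, adjusted p = 0.9998, edgeR). Peg13, a noncoding RNA within Trappc9, had 11.2, 9.28 and 10.4 CPM in the Foxp1-deficient libraries and 10.2, 7.44 and 7.75 CPM in the controls, the member with the smallest spread over libraries, 1.51-fold. Zrsr1, a splicing factor gene within Commd1, ranged from 0 to 10.2 CPM with 0 counts in both libraries numbered 2. Rasgrf1, a Ras exchange factor gene of neurons, ranged from 0 to 0.734 CPM and was too low to test.

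More members differed between replicate numbers than between genotypes. With genotype in the model, 20 of the 35 tested members differed between numbers 1, 2 and 3 at an adjusted p under 0.05 (edgeR quasi-likelihood test), beside 30.7% of all genes tested. At an unadjusted p under 0.05 it was 23 members beside 46.6%. Among genes averaging 5 CPM or more, where power is more alike, it was 19 of 30 members beside 39.7% of 10681 genes. Without Foxp1-deficient library 1 it was 12 of 36 members, and the count over all genes fell as well, to 2375 of 15233. The number took up a median of 90.0% of the variance of log2 CPM over the members and genotype 3.18%, beside 79.3% and 5.73% over all genes. These shares rest on 3 numbers and 2 genotypes, and are a description only. Maternal members passed for 9 of 15 tested and paternal members for 10 of 19, with Gnas besides.

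The members fell into patterns by number. Mest (-2.89 on the log2 scale, number 2 minus the mean of numbers 1 and 3, adjusted p = 0.00566 by edgeR over the 3 numbers), Igf2r (-2.55), Slc38a4 (-0.98), Zim1 (-1.60) and Peg3 (-1.16) were lower in the libraries numbered 2. Mirg (2.60), Kcnq1ot1 (2.14), Tssc4 (2.09), Nnat (2.01), Meg3 (1.88), H13 (1.29) and Cdkn1c (0.99) were higher there. In all, 22 of 35 members were lower in number 2, beside 59.8% of all genes. Between numbers 3 and 1, Meg3 (3.05), Mirg (2.41), Dlk1 (1.75) and Rian (1.00) of the Dlk1-Meg3 domain were higher in number 3, as were Gnas (1.26) and Kcnq1ot1 (1.18). Rian passed narrowly (adjusted p = 0.0450, edgeR) and did not pass with DESeq2 size factors, nor when either library numbered 1 or 3 of either group was left out. Mest (-1.96), Peg10 (-1.23) and Igf2r (-0.96) were lower in number 3 than in number 1. Peg10 also passed narrowly (adjusted p = 0.0470, edgeR). It did not pass with DESeq2 size factors, nor when Foxp1-deficient library 1, Foxp1-deficient library 3 or control 1 was left out. Igf2 and Ndn did not pass this test (adjusted p = 0.108 and 0.287, edgeR), nor did H19 (adjusted p = 0.472, edgeR).

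**Figure D4:**
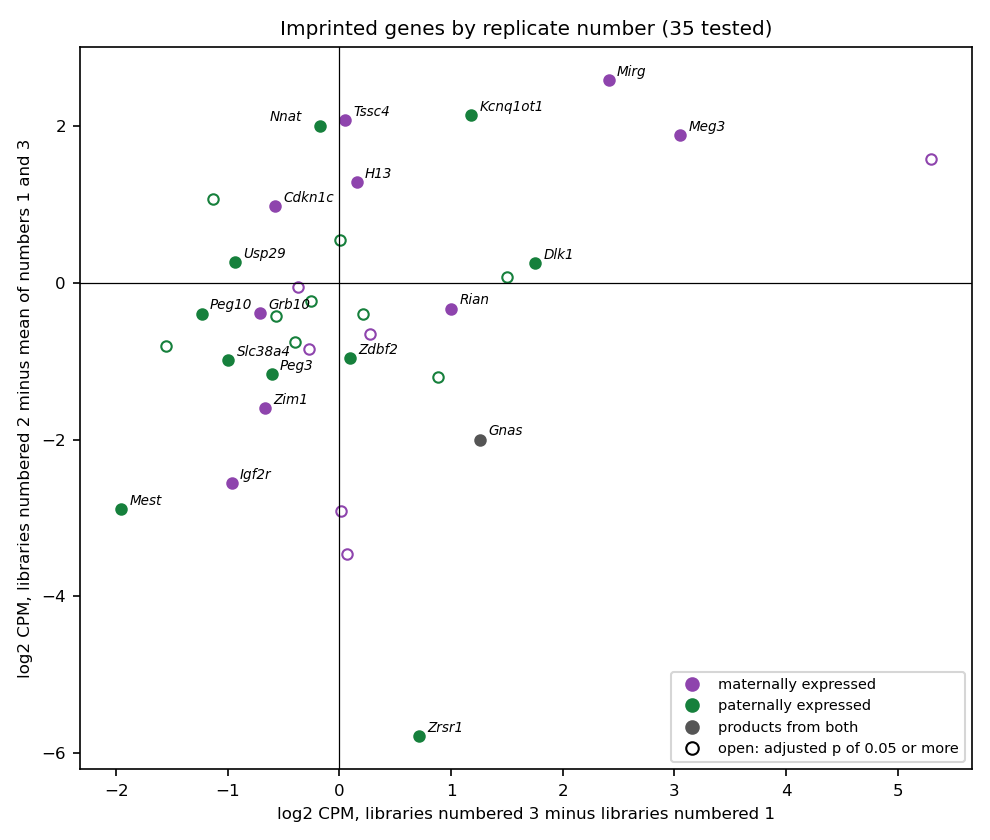
Each tested imprinted gene by its log2 CPM in libraries numbered 3 minus those numbered 1 (horizontal) and in libraries numbered 2 minus the mean of the others (vertical), both genotypes averaged; filled and named points passed the test between numbers. The genes of the Dlk1-Meg3 domain, Gnas and Kcnq1ot1 lie to the right, Mest and Igf2r lie low and to the left, and Mirg, Meg3, Kcnq1ot1, Tssc4 and Nnat lie high. Zrsr1 lies lowest, and Gnas also lies low.

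Library quality and cell type genes moved with the number as well. The libraries numbered 2 had the larger share of ribosomal RNA type counts given above. Tubule genes were highest in number 3. The 9 stromal genes summed to 9321, 3201 and 13432 CPM in the Foxp1-deficient libraries and 9374, 4968 and 13371 CPM in the controls, lowest in number 2 in both groups, with Foxd1 at or near 0 in all 6. The 4 liver genes summed to 51.4, 149.9 and 22.4 CPM in the Foxp1-deficient libraries and 46.6, 327 and 27.2 CPM in the controls, highest in number 2. The 4 erythroid genes summed to 591, 1213 and 502 CPM in the Foxp1-deficient libraries and 732, 1043 and 189 CPM in the controls, also highest in number 2. The part of these in the patterns by number was not tested.

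Genes that set or keep imprints were measured in the same libraries. Of 18 such genes, 15 could be tested, 4 higher and 11 lower on the Foxp1-deficient side (median -0.12 on the log2 scale), and 0 passed (edgeR, 0 at an unadjusted p under 0.05). The 3 of lowest p were Ehmt2, a histone methyltransferase gene, with 235 ± 151 CPM in Foxp1-deficient libraries and 183 ± 61.6 CPM in controls (SD, n = 3 each; log2 fold change 0.36 (SE 0.53, unadjusted p = 0.518), edgeR), Dnmt3a, a de novo DNA methyltransferase gene, with 118 ± 40.3 CPM in Foxp1-deficient libraries and 132 ± 28.7 CPM in controls (-0.17 (SE 0.41, unadjusted p = 0.695), edgeR), and Tet1, a gene of 5-methylcytosine oxidation, with 5.52 ± 0.757 CPM in Foxp1-deficient libraries and 6.54 ± 3.09 CPM in controls (-0.25 (SE 0.63, unadjusted p = 0.709), edgeR). Zfp57, which protects imprints by binding methylated control regions, averaged 75.0 ± 45.3 CPM in Foxp1-deficient libraries and 73.9 ± 43.6 CPM in controls. Dnmt3l, Ctcfl and Dppa3, genes of germ cells and early embryos, were too low to test.

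A further list of 36 genes took in neighbours of imprinted domains and genes imprinted in placenta or brain, and 28 could be tested. Of these, 19 were higher and 9 lower, with a median of 0.28, and 0 passed (edgeR, 0 at an unadjusted p under 0.05). The 3 of lowest p were Tspan32, a tetraspanin gene beside Ascl2, with 10.2 ± 8.55 CPM in Foxp1-deficient libraries and 3.47 ± 2.93 CPM in controls (1.56 (SE 1.00, unadjusted p = 0.161), edgeR), Cobl, an actin nucleator gene beside Grb10, with 8.73 ± 0.238 CPM in Foxp1-deficient libraries and 4.94 ± 0.849 CPM in controls (0.82 (SE 0.54, unadjusted p = 0.169), edgeR), and Dcn, encoding decorin, with 469 ± 245 CPM in Foxp1-deficient libraries and 270.1 ± 96.3 CPM in controls (0.80 (SE 0.52, unadjusted p = 0.170), edgeR). Dcn is also one of the stromal genes used above. In the blocked edgeR fit this list had 16 higher and 12 lower, a median of 0.12 and 0 called. Dcn and Tspan32 alone were under 0.05 there, beside 5.32% of all genes, with an unadjusted p = 0.00497 (adjusted p = 0.701) for Dcn and 0.0471 (adjusted p = 0.853) for Tspan32, edgeR. Between numbers, 5 of the 28 tested genes of this list passed, and 10 of the 15 genes that set or keep imprints, beside 30.7% of all genes.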

How the data were processed

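The authors deposited raw counts of fragments by gene name, made per the file headers with featureCounts 1.5.1 on paired reads against exons of mm10 (annotation version 86). No option for strand, multi-mapping or overlap appears in the command, so sense and antisense fragments of overlapping genes were not separated. The exon length per gene, deposited in bases, was used for levels per kilobase. Of the tools in the submitters' processing notes (FastQC, Trimmomatic, STAR, SAMtools, deepTools, DESeq2) the sources used here give neither role nor settings. All 48587 rows carry a name.

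Counts were tested with edgeR 4.0.16 in R 4.3.3 (TMM factors, filterByExpr, two-sided quasi-likelihood F test, Benjamini-Hochberg adjustment over 14311 genes at 0.05). Alternatives used DESeq2 1.42.0 and limma 3.58.1 (voom). Log2 CPM used a prior count of 2. The fits were tested on simulated counts. Deviations of equally numbered libraries from group means correlated at r = 0.57, 0.53 and 0.62 across genes in pairs 1, 2 and 3. The numbers were taken to pair the libraries from these data, since the labels do not say what a number marks. Every member is accounted for. A member averaging at least 5 CPM has its value in each library, and the others, 7 of 37, a range. Fold changes with errors are given for the 3 members of lowest p in each direction, and for those with a blocked p under 0.05. Members, lists and tests were chosen with earlier results of these data known. Shared exon bases, microRNA hosts and RefSeq windows (GRCm38.p6) were computed from the annotation columns. Figures were drawn with matplotlib 3.10.9.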

Additional observations from a re-analysis of the deposited data

How the results depend on the processing

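Over 17 alternatives to the comparison between genotypes, the count of members called was 1 in DESeq2 with the replicate block and 0 in the other 16, leave-one-out fits included. The count of genes called was 6 in DESeq2, 169 in DESeq2 with the replicate block, 8 in limma-voom with the block and 30 in edgeR with the block and both libraries numbered 2 left out, against 0 as reported and in the other 13. The block in edgeR called 0 genes and changed no call of a member. Directions of H19, Ndn, Peg10, Usp29 and Zdbf2 held in all 17, but leaving out 1 library moved Ndn between 0.45 (without Foxp1-deficient library 2) and 1.09, Peg10 between 0.22 (without Foxp1-deficient library 1) and 1.16 (without control 1), Usp29 between -0.53 (without Foxp1-deficient library 1) and -0.029 (without Foxp1-deficient library 3), Zdbf2 between 0.23 (without Foxp1-deficient library 3) and 0.79 (without Foxp1-deficient library 2) and H19 between -0.42 (without control 3) and -0.12 (without control 1). The same took Meg3 to between -0.056 (without Foxp1-deficient library 2) and 1.07 and Mest to between -2.17 and 0.72 (without control 1) on the log2 scale; the cause was not tested. Adjusted p of Mest ran from 0.00845 to 0.999999 over these settings. Between replicate numbers, leaving out 1 library gave 2375 to 9654 genes and 12 to 29 members, against 4394 and 20 as reported. That count was 6998 genes in limma-voom with quality weights and 2874 without both libraries numbered 2. The highest counts came without a library numbered 2. With 3 libraries a group, low members such as Magel2, Asb4 and Phlda2 limit what a fold change can show.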

Other observations

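Exon sharing was uneven among the imprinted genes. Snrpn shares 34.1% of its exon bases with other rows of the table, Cdkn1c 30.65%, Mest 23.1% and Gnas 22.0%, whereas 19 members, Peg3, Grb10, Igf2r, Ndn and Dlk1 among them, share none. The antisense row Igf2os, which overlaps Igf2 in 98 bases, had 3794 counts over the 6 libraries. Mir675, which lies within H19, had 0 counts although H19 had between 46903 and 147365 per library, and 8 small RNA rows inside Rian exons were likewise at 0. Fragments that overlap more than 1 row are by default assigned to none.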
